A study of Mus musculus with 8 samples.

Results

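The genes described here are 10 regulators of the G1 phase of the cell cycle: the D cyclins Ccnd1, Ccnd2 and Ccnd3, the E cyclins Ccne1 and Ccne2, the kinases Cdk2, Cdk4 and Cdk6, the inhibitor Cdkn1b (p27) and the transcription factor gene Myc. They were chosen by symbol, and all 10 were found among the 23420 gene symbols of the count files. The 10 genes, and the lists of genes around them below, were chosen with earlier results of these data known. The tested cells were Neat1-/- mouse embryonic fibroblasts (Neat1 null, 4 libraries) and the controls were wild-type fibroblasts (4 libraries). Both groups expressed the adenoviral oncoprotein E1A and activated HRasV12, and both had a C57BL6/N background. Neat1 is the noncoding RNA on which nuclear paraspeckles assemble, and the series asks which genes differ between transformed fibroblasts without and with it. The labels give no age, embryo or culture for a library, and a p-value therefore reflects only how these libraries vary, which may be technical.

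In the G1 phase, mitogen signals such as those from Ras raise the D cyclins, which activate Cdk4 and Cdk6. These kinases start the phosphorylation of the retinoblastoma protein, which frees E2F factors to switch on Ccne1 and Ccne2, and cyclin E with Cdk2 completes the step into S phase. Cdkn1b inhibits cyclin E with Cdk2, and Myc drives growth and cell cycle genes by binding E-box sequences together with Max. E1A binds the retinoblastoma protein itself, so in E1A-expressing cells both genotypes carry a bypass of this step.

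Promoter sequence is shown for the kinases Cdk4 and Cdk6, which bind the same cyclins, and for Ccne1, which with Cdk4 had the smallest p-values among the 10 genes. RefSeq windows (GRCm38.p6) matched 6 of the 10 genes, Ccnd3, Ccne1, Cdk2, Cdk4, Cdk6 and Cdkn1b. The 250 bases before the RefSeq start are printed 5′ to 3′ on the strand of the gene. By the GENCODE positions given below, the Cdk6 window lies within the gene and the Ccne1 window partly so. Capitals mark CACGTG, the E-box, and GGGCGG, the GC box, on either strand.
Cdk4, chr10:127063285-127063534, plus strand
Cdk4: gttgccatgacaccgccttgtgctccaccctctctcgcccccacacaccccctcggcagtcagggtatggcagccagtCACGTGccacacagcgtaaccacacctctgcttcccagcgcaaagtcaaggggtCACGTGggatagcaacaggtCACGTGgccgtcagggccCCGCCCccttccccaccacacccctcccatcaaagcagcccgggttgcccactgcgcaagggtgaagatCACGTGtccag
Cdk6, chr5:3343643-3343892, plus strand
Cdk6: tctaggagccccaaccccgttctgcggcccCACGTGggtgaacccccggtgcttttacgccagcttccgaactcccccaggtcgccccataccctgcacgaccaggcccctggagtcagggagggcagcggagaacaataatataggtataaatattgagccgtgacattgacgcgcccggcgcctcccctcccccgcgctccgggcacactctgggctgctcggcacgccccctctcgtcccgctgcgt
Ccne1, chr7:38107491-38107740, minus strand
Ccne1: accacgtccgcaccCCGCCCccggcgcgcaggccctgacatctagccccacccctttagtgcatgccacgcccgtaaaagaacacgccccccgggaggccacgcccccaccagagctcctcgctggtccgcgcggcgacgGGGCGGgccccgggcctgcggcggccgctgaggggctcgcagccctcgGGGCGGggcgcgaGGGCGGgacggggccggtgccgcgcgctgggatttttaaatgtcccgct

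The Cdk4 window held 4 copies of CACGTG, and Cdk4 is known as a Myc target gene from work in human cells. Of 32851 windows of this length in the table, 6.02% held at least 1 copy and 7 windows (0.0213%) held 4 or more. The cutoff of 4 is the count of the Cdk4 window, which is itself among these 7 windows. The Cdk6 window held 1 copy and the Ccne1 window none. The Ccne1 window held 4 GC boxes and the Cdk4 window 1, and 32.7% of all windows held at least 1. The E2F words TTTCCCGC, TTTGGCGC, TTTCGCGC and TTTGCCGC, searched on both strands, were in none of these 3 windows, and 1.86% of all windows held one. Of the matched windows not printed, that of Cdk2 held 1 E2F word and 5 GC boxes, that of Cdkn1b 1 GC box, and the 2 of Ccnd3 held 2 and 1 GC boxes. None of these 4 windows held the E-box. These matches describe the letters only, and no binding was measured.

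The Neat1 null libraries held 19651035 to 38950207 gene counts each, and the wild-type libraries 31651625 to 37069334. Neat1 itself had 6.92, 11.3, 7.90 and 6.12 CPM in Neat1 null libraries 1 to 4, against 138, 588, 753 and 1320 CPM in wild-type libraries 1 to 4, where CPM are counts brought to a common library size with TMM scaling factors. These factors ranged from 0.567 to 1.05 in Neat1 null and from 1.08 to 1.33 in wild-type libraries, so every CPM depends on them. Rn45s, the ribosomal RNA precursor, took 5.23% of gene counts in Neat1 null library 1 and at most 0.939% in the other 7 libraries. The slope of log2 CPM on log2 gene length was -0.314 and -0.477 in Neat1 null libraries 1 and 3, 0.00752 and -0.0530 in Neat1 null libraries 2 and 4, and 0.135 to 0.245 in the wild-type libraries. By Xist and Y-linked genes, Neat1 null libraries 1, 2 and 4 read as male, and Neat1 null library 3 and the 4 wild-type libraries as female. Of 12 fibroblast markers, Vim averaged 2415 and 1860 CPM and Fn1 816 and 668 CPM in Neat1 null and wild-type libraries, whereas Dcn averaged 0.325 and 0.301 CPM and Lum 0 and 0.0125 CPM. Pdgfra was called lower, at 7.50 and 90.0 CPM (log2 fold change -3.59, edgeR adjusted p = 0.00806), and S100a4 higher, at 9.90 and 2.32 CPM (2.08, edgeR adjusted p = 0.0473). Col1a1 (2.50 and 5.47 CPM) and Col1a2 (3.50 and 21.8 CPM) did not pass, and the median log2 fold change of the 11 tested fibroblast markers was -0.21. The 12 markers, mostly Vim, summed to 2649 to 4104 CPM in Neat1 null and 1897 to 3527 CPM in wild-type libraries. The 6 epithelial markers summed to 272 to 3292 CPM in Neat1 null and 200 to 683 CPM in wild-type libraries, with Krt18 the highest. Endothelial, leukocyte, skeletal muscle and neuronal markers each summed to at most 31.9 CPM in Neat1 null and 108 CPM in wild-type libraries. Of these, 3 were called, each lower in Neat1 null libraries. Cd68 averaged 12.2 and 67.9 CPM (-2.47, edgeR adjusted p = 0.0239), Map2 13.2 and 34.7 CPM (-1.39, edgeR adjusted p = 0.0439) and Syt1 0.692 and 7.15 CPM (-3.31, edgeR adjusted p = 0.0180) in Neat1 null and wild-type libraries. Other markers of the same lists had higher Neat1 null means and were not called. Among them, Cd14 averaged 10.4 and 5.73 CPM (0.85, edgeR adjusted p = 0.116) and Tubb3 1.98 and 0.621 CPM (1.68, edgeR adjusted p = 0.108). Emcn had at most 0.0314 CPM in any Neat1 null library, against 16.7 and 39.7 CPM in wild-type libraries 1 and 3 and at most 0.0221 CPM in wild-type libraries 2 and 4. The markers named were chosen after their values were seen. The part of these differences in the results was not tested, except where a fit without a library or with a correction is given.

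None of the 10 genes passed the threshold of an adjusted p of 0.05 in edgeR's quasi-likelihood test, where 17.7% of the 13316 genes tested did. Of the 10 genes 0 were called higher and 0 lower in Neat1 null libraries, against 9.97% and 7.72% of all genes. At an unadjusted p under 0.05 there were 2, Cdk4 and Ccne1, both with higher means in Neat1 null libraries, where 36.0% of all genes tested were under it. DESeq2 called these 2 genes, and 26.1% of all genes. The groups did not overlap in CPM for 1 gene, Cdk4, and for 22.6% of all genes tested. Log2 fold changes below are Neat1 null minus wild-type. Their median was 0.36 over the 10 genes and -0.06 over all genes tested. When libraries were scaled by size alone, an alternative chosen after the data were seen, the medians were -0.22 for the 10 genes and -0.59 for all genes. That scaling called 389 genes higher and 2142 lower (19.0% in all, none of them among the 10), in place of 1328 higher and 1028 lower. Upper-quartile scaling called 1036 higher and 1428 lower (18.5%, none of the 10), with a median of -0.24 over all genes. With sex as a covariate 3 of the 10 genes and 25.4% of all genes were called, and the median of the 10 was -0.052. Without Neat1 null libraries 1 and 3 none of the 10 and 0.0497% of all genes were called. All 10 genes passed the filter on low counts. In such bulk samples, fewer cells with a transcript and less of it per cell cannot be told apart.

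**Figure D1:**
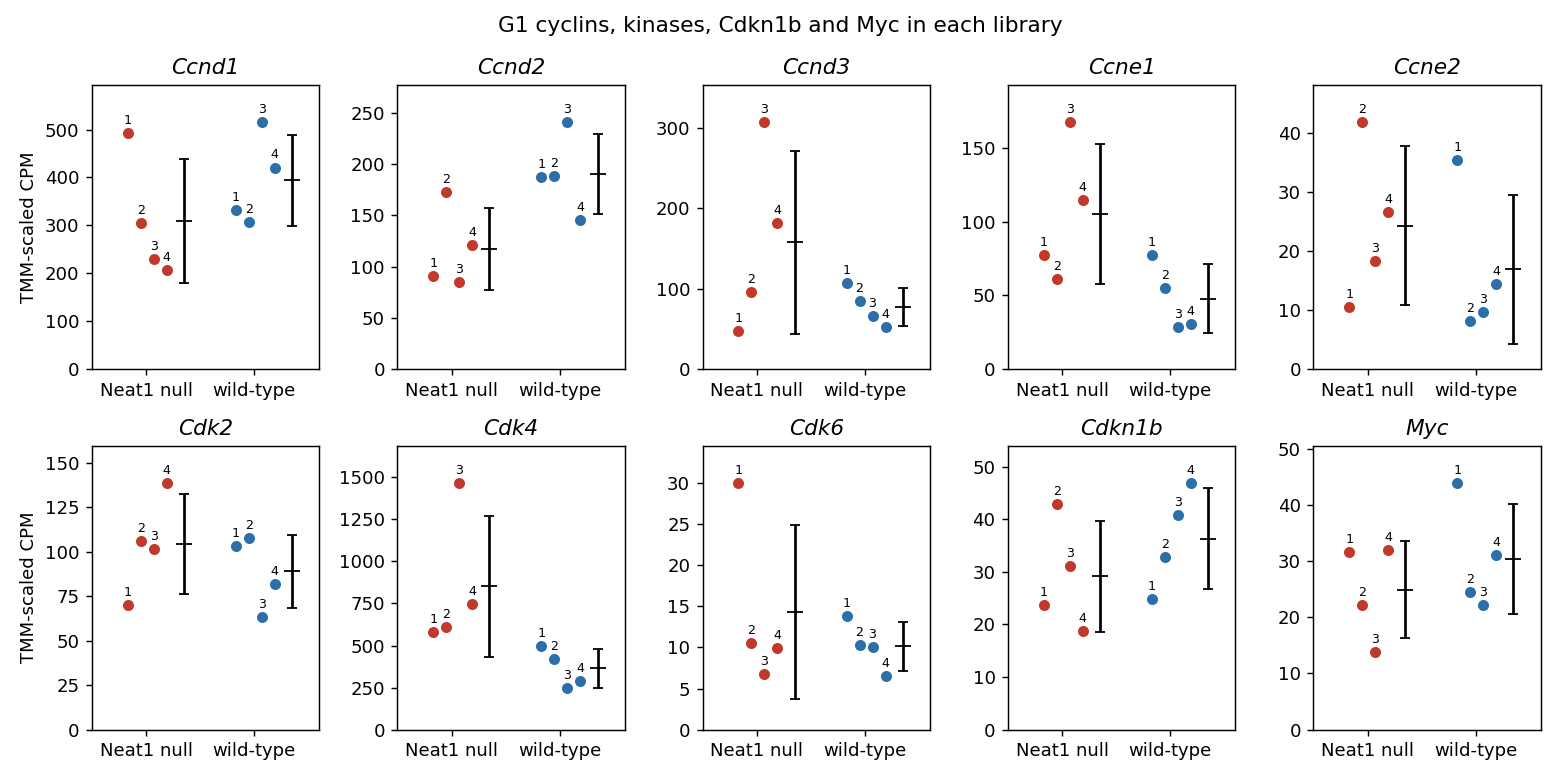
TMM-scaled CPM (linear axis from 0) of each of the 10 genes in the 4 Neat1 null (red) and 4 wild-type (blue) libraries, numbered by replicate, with mean and SD in black. Cdk4 is the 1 gene whose groups do not overlap, and Neat1 null library 3 is the highest for Cdk4, Ccnd3 and Ccne1.

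Cdk4, the main kinase partner of the D cyclins in fibroblasts, had 579, 613, 1467 and 744 CPM in Neat1 null libraries 1 to 4, against 499, 419, 248 and 289 CPM in wild-type libraries 1 to 4. Every Neat1 null library lay above every wild-type library, and library 3 stood far above the other Neat1 null libraries. The mean was 851 ± 417 CPM in Neat1 null and 364 ± 116 CPM in wild-type libraries (SD, n = 4 each). The log2 fold change was 1.23 (SE 0.43, 95% interval 0.30 to 2.15), which did not pass (edgeR adjusted p = 0.0618). Without Neat1 null library 1 it was 1.37 and passed (edgeR adjusted p = 0.0451), in a fit that called 12.1% of all genes, and over the fits with 1 library left out it ranged from 0.84 to 1.43 (adjusted p 0.0451 to 0.193). With library size alone it was 0.67 (edgeR adjusted p = 0.219). The gene lies on chromosome 10 (GRCm38, 127063534 to 127067920, plus strand), and 641 of its 3249 exon bases overlap Tspan31 on the other strand. Tspan31 averaged 264 ± 135 CPM in Neat1 null and 150 ± 21.2 CPM in wild-type libraries, and the strand setting of the counting is not given in the sources used here.

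Cdk6, the other partner of the D cyclins, had 30.0, 10.6, 6.70 and 9.91 CPM in Neat1 null libraries 1 to 4, against 13.8, 10.2, 10.1 and 6.52 CPM in wild-type libraries 1 to 4. Neat1 null library 1 alone was above the wild-type range. The fitted difference was 0.49 (SE 0.47, 95% interval -0.51 to 1.49, edgeR adjusted p = 0.473). It turned to -0.16 without Neat1 null library 1 and to -0.19 with library size alone, and was 1.38 after correction for gene length and GC content (edgeR adjusted p = 0.0658). Cdk6 has the longest exon sequence of the 10 genes, 13989 bases (chromosome 5, 3341485 to 3531008, plus strand). The log2 ratio of Cdk4 to Cdk6 counts, which needs no library scaling, was 4.27, 5.86, 7.77 and 6.23 in Neat1 null libraries 1 to 4, against 5.17, 5.35, 4.63 and 5.47 in wild-type libraries 1 to 4. Neat1 null library 1 was the lowest of all 8 and library 3 the highest, so the groups overlapped (exact permutation p = 0.314, 2-sided, adjusted p = 0.533 over 7 such ratios). The ratio was not corrected for the length slopes of the libraries, and Cdk4 has 3249 exon bases against 13989 for Cdk6.

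Cdk2, the kinase of the E cyclins, had 70.2, 106, 102 and 139 CPM in Neat1 null libraries 1 to 4, against 103, 107, 63.4 and 82.1 CPM in wild-type libraries 1 to 4. The ranges overlapped, with the highest value in Neat1 null library 4 and the lowest in wild-type library 3. Its log2 fold change was 0.23 (SE 0.34, 95% interval -0.50 to 0.95, edgeR adjusted p = 0.652), and -0.24 with library size alone. The gene has 6219 exon bases on chromosome 10 (128697939 to 128705031, minus strand).

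Ccnd1, cyclin D1, a target of Ras signalling, had 493, 305, 230 and 207 CPM in Neat1 null libraries 1 to 4, against 331, 307, 516 and 421 CPM in wild-type libraries 1 to 4. Of the Neat1 null libraries, 3 lay below all wild-type libraries and library 1 lay above 3 of them. Its log2 fold change was -0.35 (SE 0.39, 95% interval -1.18 to 0.48, edgeR adjusted p = 0.539). It was -0.67 without Neat1 null library 1 and -1.0 with library size alone. Of its 4709 exon bases on chromosome 7 (144929931 to 144939925, minus strand), 1100 overlap Oraov1 (LTO1) on the other strand, which averaged 15.9 ± 2.48 CPM in Neat1 null and 13.3 ± 1.03 CPM in wild-type libraries.

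Ccnd2, cyclin D2, had 90.3, 173, 84.6 and 121 CPM in Neat1 null libraries 1 to 4, against 188, 188, 241 and 145 CPM in wild-type libraries 1 to 4. Neat1 null libraries 1, 3 and 4 lay below all wild-type libraries, and library 2 lay within their range. On the log2 scale the difference was -0.70 (SE 0.36, 95% interval -1.46 to 0.06, edgeR adjusted p = 0.169). After correction for gene length and GC content it was -0.095 (edgeR adjusted p = 0.827). With sex as a covariate it was -1.17, a value that rests on Neat1 null library 3. The gene has 9409 exon bases on chromosome 6 (127125162 to 127152193, minus strand), of which 740 overlap 9330179D12Rik or Gm43126 on the other strand.

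Ccnd3, cyclin D3, had 47.8, 95.6, 308 and 181 CPM in Neat1 null libraries 1 to 4, against 106, 84.4, 65.9 and 52.2 CPM in wild-type libraries 1 to 4. Neat1 null library 1 was the lowest of all 8 and library 3 the highest, a range of 6.44-fold within the group, against 2.04-fold in wild-type. Its log2 fold change was 1.03 (SE 0.49, 95% interval -0.00065 to 2.07, edgeR adjusted p = 0.139). Without Neat1 null library 1 it was 1.33 and passed (edgeR adjusted p = 0.0494), and without Neat1 null library 3 it was 0.50 (edgeR adjusted p = 0.449). On chromosome 17 (47505051 to 47599691, plus strand), 361 of its 8775 exon bases overlap Bysl on the other strand. Bysl (log2 fold change 1.59, edgeR adjusted p = 0.0332) averaged 186 ± 57.6 CPM in Neat1 null and 61.5 ± 44.5 CPM in wild-type libraries.

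Within the D cyclins, per base of exon, Ccnd3 made up 4.54%, 11.6%, 37.7% and 26.7% in Neat1 null libraries 1 to 4, against 11.8%, 10.2%, 5.26% and 5.38% in wild-type libraries 1 to 4. The Neat1 null libraries thus held both the lowest and the highest share, and the groups overlapped (exact permutation p = 0.257, adjusted p = 0.533 over 7 ratios). Ccnd1 made up 87.4%, 68.9%, 52.6% and 56.8% in Neat1 null libraries 1 to 4, against 68.7%, 68.8%, 76.8% and 80.7% in wild-type libraries 1 to 4. Per base of exon it was the largest part in all 8 libraries. By CPM without division by length, Ccnd3 exceeded Ccnd1 in Neat1 null library 3 (308 and 230 CPM). The share of Ccnd1 was lower by 7.30 percentage points in the Neat1 null mean than in the wild-type mean (exact permutation p = 0.400, adjusted p = 0.533). That of Ccnd2 was 13.4 ± 5.50% in Neat1 null and 18.1 ± 3.06% in wild-type libraries (SD, n = 4 each, exact permutation p = 0.229, adjusted p = 0.533). These tests run over the 70 assignments of libraries and cannot give a p below 0.0286.

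**Figure D2:**
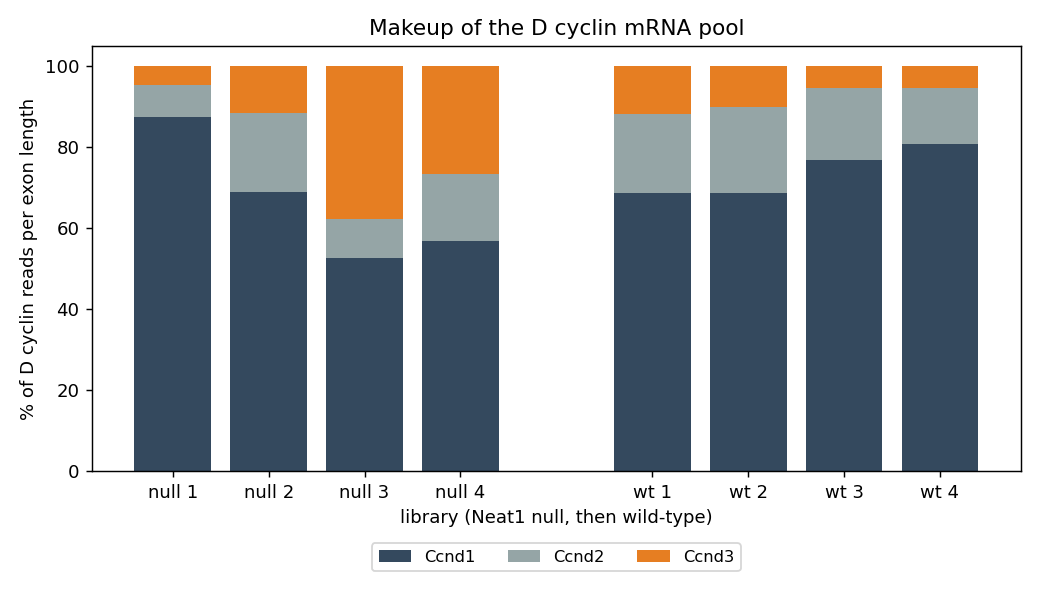
Share of each D cyclin (percent of the reads per exon base over Ccnd1, Ccnd2 and Ccnd3, axis from 0) in the 4 Neat1 null and 4 wild-type libraries. Ccnd3 spans 4.54% to 37.7% in Neat1 null libraries and 5.26% to 11.8% in wild-type libraries.

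Ccne1, cyclin E1, an E2F target, had 77.3, 61.0, 168 and 114 CPM in Neat1 null libraries 1 to 4, against 77.3, 55.1, 28.2 and 30.2 CPM in wild-type libraries 1 to 4. Neat1 null libraries 3 and 4 lay above all wild-type libraries, and wild-type libraries 3 and 4 below all Neat1 null libraries. The mean was 105 ± 47.3 CPM in Neat1 null and 47.7 ± 23.2 CPM in wild-type libraries (SD, n = 4 each). The log2 fold change was 1.14 (SE 0.42, 95% interval 0.24 to 2.04), which did not pass (edgeR adjusted p = 0.0720). Without wild-type library 1 it was 1.48 and without Neat1 null library 2 it was 1.34, and both passed (edgeR adjusted p = 0.0332 and 0.0438), in fits that called 20.9% and 21.7% of all genes. With library size alone it was 0.61. The gene has 2662 exon bases, none shared with another annotated gene, on chromosome 7 (38097984 to 38107534, minus strand).

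Ccne2, cyclin E2, had 10.4, 41.8, 18.3 and 26.6 CPM in Neat1 null libraries 1 to 4, against 35.3, 8.06, 9.62 and 14.4 CPM in wild-type libraries 1 to 4. Both groups spread by about the same factor, 4.01-fold in Neat1 null and 4.38-fold in wild-type libraries. On the log2 scale the difference was 0.53 (SE 0.51, 95% interval -0.55 to 1.61, edgeR adjusted p = 0.468). It was 1.20 without wild-type library 1, and without Neat1 null library 2 it was 0.14 (edgeR adjusted p = 0.0823 and 0.858). On chromosome 4 (11191351 to 11204779, plus strand), 609 of its 3495 exon bases overlap Ints8 on the other strand, which averaged 37.3 ± 15.8 CPM in Neat1 null and 40.4 ± 18.6 CPM in wild-type libraries. The log2 ratio of Ccne1 to Ccne2 counts was 2.18 ± 1.19 in Neat1 null and 1.63 ± 0.79 in wild-type libraries (SD, n = 4 each, exact permutation p = 0.457, adjusted p = 0.533 over 7 ratios).

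Cdkn1b, which encodes p27, had 23.7, 42.9, 31.1 and 18.7 CPM in Neat1 null libraries 1 to 4, against 24.8, 32.9, 40.7 and 46.9 CPM in wild-type libraries 1 to 4. Neat1 null libraries 1 and 4 lay below all wild-type libraries and the other 2 within their range. Its log2 fold change was -0.32 (SE 0.36, 95% interval -1.08 to 0.44, edgeR adjusted p = 0.540), and it turned to 0.057 after correction for gene length and GC content. The gene has 4552 exon bases on chromosome 6 (134920401 to 134925513, plus strand), with none shared. The amount of p27 is set largely by its degradation, which counts of mRNA do not show.

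Myc, on chromosome 15 (61985391 to 61990374, plus strand), had 31.6, 22.2, 13.8 and 32.0 CPM in Neat1 null libraries 1 to 4, against 43.9, 24.5, 22.1 and 31.1 CPM in wild-type libraries 1 to 4. The lowest value was that of Neat1 null library 3, the library highest for Cdk4, and the highest was that of wild-type library 1. The mean was 24.9 ± 8.67 CPM in Neat1 null and 30.4 ± 9.78 CPM in wild-type libraries (SD, n = 4 each). The log2 fold change was -0.29 (SE 0.37, 95% interval -1.07 to 0.50, edgeR adjusted p = 0.596). It was -0.81 with library size alone and -0.043 without wild-type library 1. With sex as a covariate it was -1.14, a value that rests on Neat1 null library 3.

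**Figure D3:**
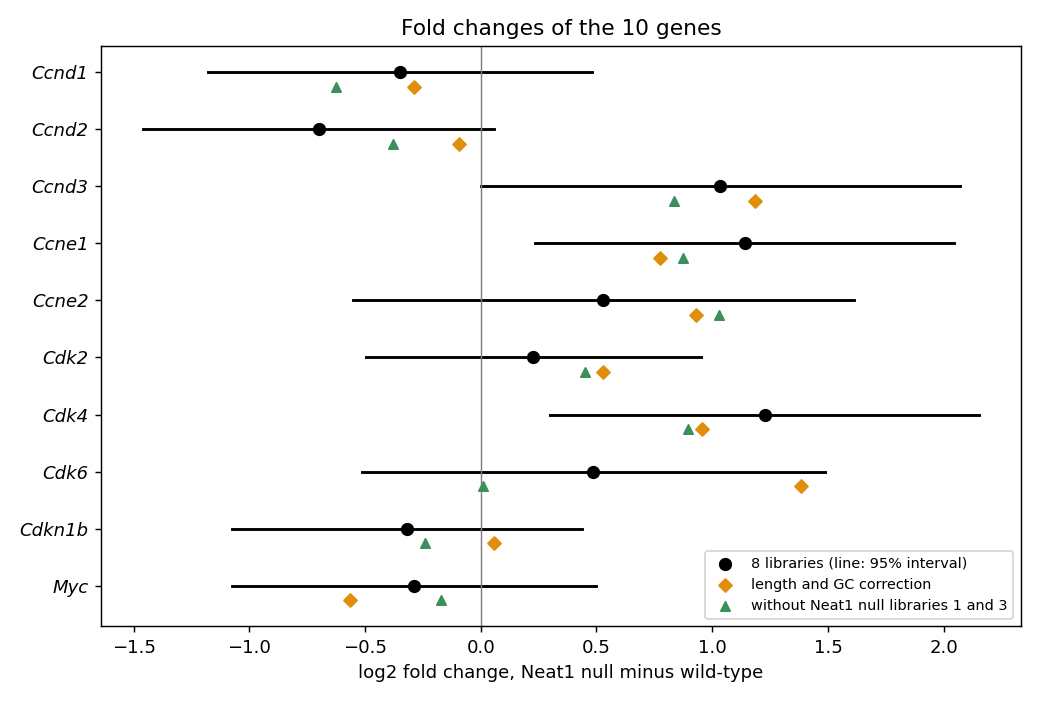
Log2 fold changes of the 10 genes (horizontal axis, Neat1 null minus wild-type) with 95% intervals from the fit of 8 libraries (black), after correction for gene length and GC content (orange), and without Neat1 null libraries 1 and 3 (green). The intervals of Cdk4 (0.30 to 2.15) and Ccne1 (0.24 to 2.04) lie above 0, and the other 8 hold 0.

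Levels can be compared between the genes per length, as mean CPM per kilobase of exon. In Neat1 null libraries the order was Cdk4 (262), Ccnd1 (65.6), Ccne1 (39.5), Ccnd3 (18.0), Cdk2 (16.8), Ccnd2 (12.5), Myc (9.17), Ccne2 (6.95), Cdkn1b (6.40) and Cdk6 (1.02). In wild-type libraries it was Cdk4 (112), Ccnd1 (83.6), Ccnd2 (20.2), Ccne1 (17.9), Cdk2 (14.3), Myc (11.2), Ccnd3 (8.80), Cdkn1b (7.98), Ccne2 (4.82) and Cdk6 (0.726). In Neat1 null libraries, only Cdk4 and Ccnd1 at the top and Cdkn1b and Cdk6 at the bottom were neighbours whose ranges over libraries did not overlap. In wild-type libraries the ranges of Cdk4 and Ccnd1 overlapped, and Cdk4 was above Ccnd1 in 2 of 4 libraries, against 4 of 4 Neat1 null libraries. There, Ccnd1 lay clear of Ccnd2, and Ccne2 clear of Cdk6. Ccnd3 stood above Cdk2 by its Neat1 null mean but in only 1 of the 4 libraries.

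The genes with the most similar profile over the 8 libraries, by Pearson's r of log2 CPM among 11787 genes, were Gde1 (0.998), Cers5 (0.994) and Tsen15 (0.993) for Cdk4, and Smad7 (0.948), Fbxl14 (0.937) and Son (0.930) for Myc. These are the highest of many values, and the points share the 2 genotypes and the library scaling. Of these, Tsen15 passed the test, with a log2 fold change of 1.14 (SE 0.38, edgeR adjusted p = 0.0491), but not without Neat1 null library 3 (0.80, edgeR adjusted p = 0.12). Gde1 had 1.07 (SE 0.36, edgeR adjusted p = 0.0527).

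Of 11 genes listed for the activation and assembly of cyclin-kinase complexes, 2 rose in Neat1 null libraries and none fell. Their median change was 0.50 on the log2 scale. The list also holds the inhibitory kinases Wee1 and Pkmyt1, so its count and median are not those of activators alone. Counts of rises in the fit of 8 libraries are to be read against 9.97% of all genes, and counts of falls against 7.72%. For other fits the shares are given beside the counts. Cdc37, the co-chaperone that delivers Cdk4 to Hsp90, averaged 1025 ± 608 CPM in Neat1 null and 314 ± 76.0 CPM in wild-type libraries, a log2 fold change of 1.71 (SE 0.47, edgeR adjusted p = 0.0267). Cks1b, the adaptor through which the Skp2 ligase recognises p27, averaged 213 ± 67.7 CPM in Neat1 null and 90.3 ± 27.8 CPM in wild-type libraries, a log2 fold change of 1.24 (SE 0.38, edgeR adjusted p = 0.0368). After correction for gene length and GC content Cks1b had 0.59 (edgeR adjusted p = 0.159) and Cdc37 2.17 (edgeR adjusted p = 0.0347). Among 14 genes for the turnover of G1 cyclins, p27 and Myc, 1 rose and 0 fell (median 0.0077), namely Rbx1, the RING subunit of cullin ligases, with a log2 fold change of 1.68 (SE 0.42, edgeR adjusted p = 0.0212). Among 7 other inhibitors 1 rose and 0 fell (median 0.10), namely Cdkn3, a phosphatase that acts on Cdk2 in human cells, with 21.3 ± 9.06 CPM in Neat1 null and 7.68 ± 0.883 CPM in wild-type libraries (log2 fold change 1.47, SE 0.39, edgeR adjusted p = 0.0233). The inhibitors called higher were 2 without Neat1 null library 2 or 4 (12.5% and 9.99% of all genes were called higher there), 2 by DESeq2 (14.9%) and 2 with no filter on low counts (7.60%). The turnover genes called higher were 2 by DESeq2 and 2 with RLE size factors (10.8%). With sex as a covariate, where genotype rests on Neat1 null library 3, the turnover genes had a median of -0.30. The activation and assembly list had a median of 0.37 in that fit.

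None of 13 Rb and E2F genes passed in edgeR (median -0.27), where 1 was higher and 3 lower at an unadjusted p under 0.05. DESeq2 called 3 lower (11% of all genes were called lower), as did upper-quartile scaling (10.7%), library size alone (16.1%) and the fit without Neat1 null library 2 (9.18%). Rbl2 (p130) had the smallest p, with a log2 fold change of -1.14 (SE 0.38, edgeR adjusted p = 0.0504). Sex as a covariate, where genotype rests on Neat1 null library 3, gave a median of -0.83. There was 1 lower without Neat1 null library 4 (5.87%), wild-type library 1 (10.2%) or wild-type library 2 (6.62%), with no filter on low counts (6.46%) and with at least 1 CPM in 4 libraries (7.81%). The correction for gene length and GC content also gave 1 lower (4.84%), and turned the median of this list to 0.10. None of 7 other cyclins tested passed (median 0.49, 1 higher and 0 lower at an unadjusted p under 0.05, 1 higher by DESeq2), with Ccnf nearest (1.00, SE 0.40, edgeR adjusted p = 0.0898). None of 15 other kinases of the family passed (median 0.18, 2 higher and 2 lower at an unadjusted p under 0.05, 1 higher by DESeq2), with Cdk19 of the Mediator complex nearest (-0.97, SE 0.38, edgeR adjusted p = 0.0828), where library size alone called 3 lower, a fit that called 16.1% of all genes lower. Without Neat1 null library 2, 1 kinase was lower (9.18% of all genes). With sex as a covariate the median was -0.19 for these kinases and 0.084 for the other cyclins. The length and GC correction (7.59% of all genes higher) called 1 other cyclin higher.

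Of 26 textbook Myc target genes, 9 rose and 1 fell in Neat1 null libraries. Their median change was 1.20 on the log2 scale, against -0.06 over all genes tested. Lactate dehydrogenase A (Ldha) is 1 of these, with 2986 ± 1430 CPM in Neat1 null and 592 ± 191 CPM in wild-type libraries (log2 fold change 2.33, SE 0.49, edgeR adjusted p = 0.0180). Bop1, a ribosome assembly factor, rose by 2.16 (SE 0.52, edgeR adjusted p = 0.0191), and Srm, spermidine synthase, rose by 2.22 (SE 0.55, edgeR adjusted p = 0.0200). The telomerase gene Tert averaged 9.10 ± 3.11 CPM in Neat1 null and 24.8 ± 4.14 CPM in wild-type libraries, a log2 fold change of -1.45 (SE 0.37, edgeR adjusted p = 0.0227). After correction for gene length and GC content 9 were higher (7.59% of all genes) and 1 lower (4.84%) with a median of 1.25, and Srm did not pass (1.32, edgeR adjusted p = 0.0919). DESeq2 called 13 higher (14.9% of all genes). Leaving out Neat1 null library 1 gave 5 higher (6.71%), wild-type library 1 gave 17 (10.7%) and wild-type library 2 gave 4 (6.25%). Sex as a covariate, where genotype rests on Neat1 null library 3, gave a median of 0.92. Library size alone gave 5 higher (2.92%), with a median of 0.68. Without Neat1 null libraries 1 and 3 the median was 0.85, with 0 called higher (0.0355% of all genes) and 0 lower (0.0142%).

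Among 13 tested partners and relatives of Myc 3 rose and 0 fell, with a median of -0.15. Zbtb17 (Miz-1), through which Myc represses genes, averaged 105 ± 40.7 CPM in Neat1 null and 41.0 ± 7.43 CPM in wild-type libraries, a log2 fold change of 1.36 (SE 0.36, edgeR adjusted p = 0.0235). Bin1, an adaptor that binds Myc, rose by 1.71 (SE 0.50, edgeR adjusted p = 0.0313), and Neat1 null library 1 held its highest value, 776 CPM, against 155 to 255 CPM in the other Neat1 null libraries. Mxd3, a Max partner that opposes Myc, rose by 1.64 (SE 0.48, edgeR adjusted p = 0.0313). After correction for gene length and GC content 1 of the 3 passed, and without Neat1 null library 1 also 1. Without Neat1 null library 3, wild-type library 3 or wild-type library 4, no gene of any of these 8 lists passed in either direction, in fits that called 0.0950%, 0.135% and 0.0820% of all genes. The activation and assembly list also had 0 calls without wild-type library 2 and 1 without Neat1 null library 1. With library size alone, none passed among the inhibitors, the activation and assembly list, the turnover genes and the partners of Myc. Every list but the Myc targets had a median below 0 there.

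**Figure D4:**
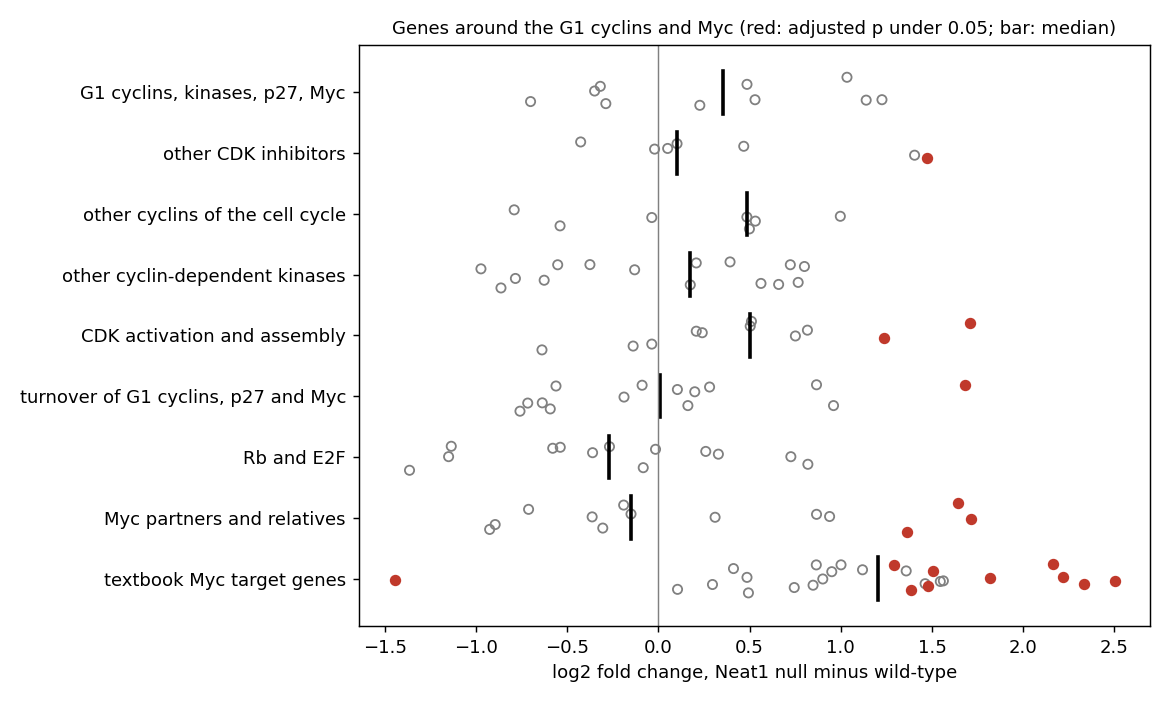
Log2 fold change (horizontal axis, Neat1 null minus wild-type) of every tested gene of the 10 genes described here and of 8 lists of genes around them, filled red where the edgeR adjusted p was under 0.05, with the median of each list as a bar. The Myc target list has a median of 1.20 with 9 rises and 1 fall, and the 10 G1 genes a median of 0.36 with none past the threshold.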

How the data were processed

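RNA-seq counts of 8 libraries (total RNA, stranded TruSeq kit) were used as deposited by the authors: raw counts of reads for each gene symbol, with a file for each library. The submitters' processing notes name CASAVA 1.8, STAR, DESeq2 and mm10, without roles. The counter, its strand setting and the annotation are not given in the sources used here. In each file 2 entries name no gene and were left out. They held 5.48% to 15.7% (outside genes) and 1.09% to 1.76% (ambiguous) of the counts. Genes were filtered with filterByExpr (minimum count 10), scaled with TMM and tested with edgeR 4.0.16 in R 4.3.3 (robust quasi-likelihood F test, 2-sided, genotype as the only term), with Benjamini-Hochberg adjustment over 13316 genes. The SE is the log2 fold change divided by the square root of F, and 95% intervals use the t distribution of that fit. CPM were computed from the counts. Ratios within a library were compared with exact permutation tests in scipy 1.17.1. Alternatives included DESeq2 1.42.0, other scalings and filters, libraries left out, a replicate block, sex as a covariate, and splines of gene length and GC content (5 degrees of freedom each) as offsets. Positions and lengths are from GENCODE M21 (GRCm38), which matched 98.5% of the symbols. Promoters are from RefSeq. Counts of the 10 genes ranged from 116 to 41597 per library, so counting error is small beside the spread between libraries. No 2 libraries of a group were alike within sampling noise (chi-square per degree of freedom at least 62.1). The fit was also run on simulated counts that lacked the length slopes and sex differences of these libraries, so that run does not test the fit under them. The members and lists were chosen with earlier results of these data known. Named are the 10 genes, Neat1, up to 4 called genes of each list by smallest p (or the 1 nearest), and the 3 genes most like Cdk4 and Myc. Genes that overlap a member, and the cell type and sex markers, are named with their values as checks. Wee1 and Pkmyt1 are named to show what their list holds.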

Additional observations from a re-analysis of the deposited data

Results flagged for a closer look

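Cdk6 in Neat1 null library 1, at 30.0 CPM, stood apart from the other 3 Neat1 null libraries, which had 6.70 to 10.6 CPM. Without library 1 the log2 fold change of Cdk6 was -0.16. It was the 1 value so far from its group among 34 groups of 4 libraries examined (the 10 genes and 7 ratios in each genotype), and chance flags about 1 in 20. Rn45s took 5.23% of the counts there, and its part in the value was not tested.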

How the results depend on the processing

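Over 19 alternatives, 185 of 190 log2 fold changes of the 10 genes kept their sign, and 9 became called. DESeq2 called 2 genes, Cdk4 (1.29) and Ccne1 (1.21), the same 2 that an adjusted p under 0.1 admits. Sex as a covariate gave 2.01 for Cdk4, 1.99 for Ccnd3 and 1.81 for Ccne1, and turned Cdk6 to -0.60. It also moved Ccnd2 to -1.17 and Myc to -1.14. In that fit only Neat1 null library 3 separates sex from genotype, so these values set that library against wild-type. Calls from that fit are among the 9 and rest on that library too. Library size alone turned Cdk2 to -0.24 and Cdk6 to -0.19, and the length and GC correction turned Cdkn1b to 0.057. With 1 library left out, 0 to 2 genes were called higher and 0 lower. The ranges were 0.50 to 1.33 for Ccnd3, 0.83 to 1.48 for Ccne1, 0.84 to 1.43 for Cdk4 and -0.16 to 0.73 for Cdk6. Without Neat1 null libraries 1 and 3, no member was called, and 2 had an unadjusted p under 0.05. The labels do not say whether the replicate numbers pair libraries. Same-numbered deviations correlated by 0.317, -0.258, -0.0140 and 0.107, values of mixed sign that cannot decide it. With a replicate block, 0 of the 10 genes and 2245 of all genes were called, and Cdk4 had 1.16. That fit called 13 of the 26 Myc targets higher (8.21% of all genes), 1 of 11 activation and assembly genes higher and 2 of 13 Rb and E2F genes lower (8.65% of all genes). The 7 ratios kept their sign and their side of the threshold with 0.5 added to each count. The log2 ratio of Ccnd1 to Ccnd2 differed by -0.026 in place of 0.33 without Neat1 null library 1. Where a value moved, the cause was not tested. The smallest count of the 10 genes in a library was 116 (Ccne2, Neat1 null library 1), and what kept genes from passing was not tested.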
